A study of Mus musculus with 9 samples.

Results

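The genes described here encode the proteins of the mitochondrial ribosome. Members were the rows of the deposited gene table whose name begins with Mrpl or Mrps followed by a number, which gave 83 of 36119 genes. Of these, 78 were protein-coding, 49 named for the large subunit and 29 named for the small subunit, and 5 were pseudogenes. RNA was sequenced from the livers of 9 wild-type male C57BL/6J mice aged 6 to 8 weeks, 3 in each of 3 groups. Cont mice received saline by intraperitoneal injection and corn oil by gavage. OA mice received oleanolic acid, a plant triterpenoid that causes cholestatic liver injury in mice, by gavage in corn oil at 295.5 mg/kg per the sample labels (295.92 mg/kg in the treatment protocol). ZnPP+OA mice were injected with 20 mg/kg protoporphyrin IX zinc, an inhibitor of heme oxygenase-1, 2 h before each OA dose. The study's methods describe saline in equal volume, in place of ZnPP, before gavage of either corn oil or OA. By that account the OA mice were injected as well. Treatment lasted 4 days in every group, and all mice were fasted for 12 h before the livers were taken. No group received ZnPP alone, so ZnPP was seen only together with OA. Poly(A) RNA of each liver was made into 1 library, and libraries are called by their group and replicate number.

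The mitochondrial ribosome sits in the matrix at the inner membrane and makes the few proteins that mitochondrial DNA encodes, all of them subunits of the respiratory chain and ATP synthase. Its 2 ribosomal RNAs come from mitochondrial DNA, while every one of its proteins is encoded in the nucleus, translated in the cytosol and imported. The small subunit reads the mRNA and holds the decoding site, and the large subunit forms the peptide bond and carries the exit tunnel. Some names do not match the position in the structure. The products of Mrps30 and Mrps18a sit in the large subunit, and the product of Mrps36 is a component of the alpha-ketoglutarate dehydrogenase complex and not of the ribosome. Hepatocytes are rich in mitochondria, so these genes are active in normal liver.

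Promoters of 3 members are shown because the results turn on these genes. Mrpl33 was the only member called in a comparison, Mrpl35 came nearest to a call in another, and Mrpl18 had the highest level and the widest range in CPM. The windows are from RefSeq on build GRCm38.p6, read 5′ to 3′ on the strand of the gene, and cover 250 bases before to 50 bases after the start site. Capitals mark matches, on either strand, to CCGGAAG (the core that ETS factors such as GABP bind), GCATGCG (the core of the NRF1 site) and AAGATGG (the core of the YY1 site). These 3 motifs do not overlap one another in the printed windows.
Mrpl33, chr5:31613701-31614000, plus strand: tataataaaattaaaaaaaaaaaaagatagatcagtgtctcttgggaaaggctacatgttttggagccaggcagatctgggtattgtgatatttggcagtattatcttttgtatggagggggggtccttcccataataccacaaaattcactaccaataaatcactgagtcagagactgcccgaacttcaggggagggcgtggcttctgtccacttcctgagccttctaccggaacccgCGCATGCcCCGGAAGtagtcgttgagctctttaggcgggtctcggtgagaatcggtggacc
Mrpl35, chr6:71823735-71824034, minus strand: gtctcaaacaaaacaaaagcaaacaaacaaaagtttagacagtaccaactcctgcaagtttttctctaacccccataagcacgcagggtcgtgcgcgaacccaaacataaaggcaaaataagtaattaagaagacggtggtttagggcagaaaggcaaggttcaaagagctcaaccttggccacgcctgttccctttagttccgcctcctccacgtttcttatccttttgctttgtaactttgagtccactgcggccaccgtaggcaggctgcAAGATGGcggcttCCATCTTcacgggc
Mrpl18, chr17:12916042-12916341, minus strand: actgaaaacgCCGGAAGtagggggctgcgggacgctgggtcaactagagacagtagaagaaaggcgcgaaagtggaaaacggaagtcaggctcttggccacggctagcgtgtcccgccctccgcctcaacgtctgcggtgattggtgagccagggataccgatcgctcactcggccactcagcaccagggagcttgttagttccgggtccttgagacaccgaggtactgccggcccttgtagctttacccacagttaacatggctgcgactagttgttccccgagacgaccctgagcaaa
Mrpl33 held an NRF1 match beginning at position -11 and an ETS match beginning at position -3 from its start site. Mrpl35 held a YY1 match on each strand, beginning at positions 24 and 37 after its start site. Mrpl18 held an ETS match at position -240 from its start site. These distances hold for the RefSeq start sites only. In GENCODE M21, Mrpl18 spans chr17:12911349-12916345, Mrpl35 chr6:71812997-71826969 and Mrpl33 chr5:31596935-31664384. Each window lies within the span of its gene, which begins further upstream there.

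RefSeq gave a window for 69 of the 78 protein-coding members. The ETS motif was present in 26 of them (37.7%), against 9.93% of the 27025 genes with a window. NRF1 matches were present in 8 (11.6%, against 4.01%) and YY1 matches in 13 (18.8%, against 7.28%). At least 1 of the motifs was present in 38 members (55.1%), against 19.3% of all genes. The windows of members had a median GC content of 58.7%, against 52.7% over all windows, and GC content was not matched in these shares. Of the 43 large subunit genes with a window, 15 held the ETS motif and 7 the NRF1 motif. Of the 26 small subunit genes, 11 held the ETS motif and 1 the NRF1 motif.

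Library totals ranged from 32639438 to 85060187 counts, and mitochondrially encoded genes took very unequal parts of them. Their share was 43.2% to 74.7% in Cont, 13.7% to 38.2% in OA and 59.0% to 68.7% in ZnPP+OA. Copies of mitochondrial DNA on chromosome 1 took a further 3.65% to 17.4%. Cont 2 stood apart, with only 4946748 counts left for all other genes, against 9417867 to 70295836 in the remaining libraries. Replicates of a group differed by far more than counting noise. Values below are therefore CPM, the counts of a gene scaled to a common library size with TMM factors, unless another scale is named. The 10 hepatocyte markers summed to 20900 to 65700 CPM in Cont, 16000 to 29100 in OA and 21000 to 27200 in ZnPP+OA, with 9 of 10 negative and 1 called lower for OA against Cont. The erythrocyte markers summed to 239 to 896, 157 to 240 and 176 to 182 CPM, and all 5 tested were negative for OA against Cont, 1 of them called. Over all genes tested, 2.80% were called lower for OA against Cont. The 8 Kupffer cell and macrophage markers summed to 133 to 344 CPM in Cont, 600 to 706 in OA and 242 to 341 in ZnPP+OA, none of them at 0 in a whole group. The 8 neutrophil markers summed to 4.14 to 18.0, 20.7 to 68.8 and 13.0 to 17.4 CPM, with 2 of them at 0 in Cont, and the 6 cholangiocyte markers to 45.0 to 98.0, 164 to 287 and 133 to 167 CPM. For OA against Cont all 8 Kupffer cell and macrophage markers were positive and 5 were called higher. All 7 neutrophil markers tested and all 6 cholangiocyte markers were positive, with 1 of each list called higher. Over all genes tested, 2.40% were called higher. Of the stellate cell and fibroblast markers 5 of 8 were positive, of the endothelial markers 3 of 7, and none was called. The part of these cells in the results below was not tested. In whole liver, fewer cells of a type and less RNA per cell cannot be told apart.

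All 78 protein-coding members were detected in every library and passed the filter on low counts. The lowest count of a member was 15 (Mrps22 in Cont 2), and the lowest in each OA library was 159 to 600. The members together held 14407 counts in Cont 2 and 248760 counts in OA 3, so their values were least precise in the first and most precise in the second. Of the 5 pseudogenes, 4 were tested and none was called. Mrps36-ps1 was not tested, and all 5 were at or below 3.02 CPM (Mrpl23-ps1 in Cont 1).

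Per length, the deposited FPKM placed Mrpl18 first among the members. Mrpl18, which in human cells also takes part in the import of 5S ribosomal RNA, averaged 90.5 FPKM over the 9 libraries and stood 6.82 to 55.5 times above the median member of the same library. Mrpl24 followed at 34.7 FPKM, and Mrpl12, the stalk protein that recruits translation factors, at 30.5 FPKM. Among small subunit genes Mrps21 (25.7 FPKM), Mrps7 (16.7 FPKM) and Mrps15 (14.2 FPKM) were highest. The lowest large subunit genes were Mrpl3 (0.712 FPKM), Mrpl32 (1.20 FPKM) and Mrpl48 (1.49 FPKM), and the lowest small subunit genes were Mrps22 (1.12 FPKM), Mrps30 (1.32 FPKM) and Mrps35 (1.85 FPKM). These means are weighted toward OA, where FPKM were highest, and the order differed between groups. In ZnPP+OA, Mrpl38 (14.9 FPKM) took the third place of the large subunit, Mrpl35 (0.512 FPKM) was second lowest of it, and Mrps30 (0.628 FPKM), Mrps10 (0.722 FPKM) and Mrps25 (0.755 FPKM) were the lowest of the small subunit. Mrpl18 and Mrps21 were highest and Mrpl3 was lowest of their subunits in each group. The genes encode proteins of a single particle, yet their mRNA levels per length spanned from 0.712 FPKM to 90.5 FPKM. The FPKM of each gene matched its counts divided by a length of 652.2 to 9272 bases, which covers more than the coding sequence and sets part of this order.

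The share of liver RNA that these genes took depended on what it was measured against. Scaled as CPM by the library total, the 78 members summed to 1008, 232.7 and 1331 in Cont, 1985, 2973 and 2925 in OA, and 838.1, 505.2 and 846.6 in ZnPP+OA. On that scale every OA liver stood above every other liver. With mitochondrially encoded genes and their copies left out of the total, the sums were 2176, 2912 and 3217 in Cont, 3782, 3943 and 3539 in OA, and 3779, 3210 and 3272 in ZnPP+OA. OA still stood above Cont, but OA and ZnPP+OA overlapped. On the TMM scale the means were 978.2 ± 92.1 CPM in Cont, 1158 ± 73.0 CPM in OA and 1107 ± 35.8 CPM in ZnPP+OA (SD, n = 3), with both treated groups above every Cont liver and with overlap between OA and ZnPP+OA. On the TMM scale this separation rested on Mrpl18. Without it the sums were 801 to 959 CPM in Cont, 921 to 1147 CPM in OA and 829 to 981 CPM in ZnPP+OA, and all groups overlapped.

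**Figure D1:**
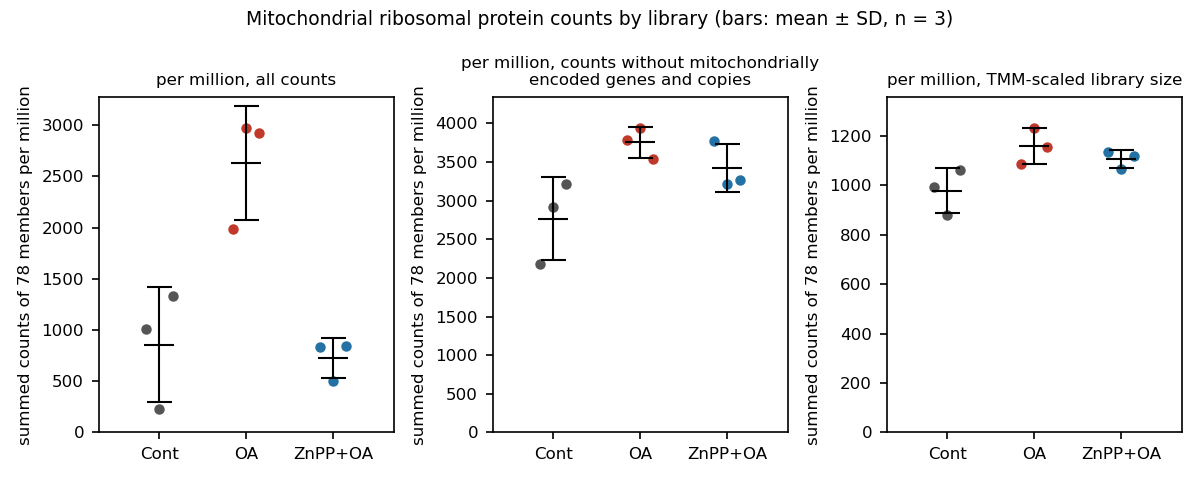
Summed counts of the 78 protein-coding members in each library as CPM, against all counts (left), against counts outside mitochondrially encoded genes and their copies (middle) and against the TMM-scaled library size (right); points are libraries and bars the mean ± SD (n = 3). The OA livers sit at 1985 to 2973 on the left, above all others, while in the middle the OA and ZnPP+OA livers overlap.

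The first comparison asked how the livers of OA mice differed from those of Cont mice. Among the 78 members, 1 was called higher in OA at an adjusted p under 0.05 in edgeR's quasi-likelihood test and none was called lower, against 5.21% of the 18895 genes tested (2.40% higher and 2.80% lower). A share of this size is no larger than the background. Most members nevertheless had a higher value in OA, 62 with a positive and 16 with a negative log2 fold change, where 53.5% of all genes were positive. Their median log2 fold change was 0.32, against 0.09 for all genes tested, and it was above the median of all genes under every alternative, by 0.155 to 1.43. A scaling factor shifts both medians alike, so the alternatives of scaling could hardly move this difference (0.226 to 0.237). The 1.43 came from the FPKM setting without a filter. At an unadjusted p under 0.05, 13 members were higher (16.7%, against 11.6% of all genes) and 1 was lower (1.28%, against 10.3%). The call and the all-gene split depended on the scaling. With RLE factors no member was called and 316 genes were higher and 634 lower, against 454 and 530 with TMM, whereas scaling by library totals alone gave 14 members higher, with 2829 genes higher and 209 lower.

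Mrpl33 encodes a small protein of the large subunit. It was at 6.93, 7.14 and 11.9 CPM in Cont, at 21.3, 27.0 and 19.1 CPM in OA and at 11.4, 7.87 and 15.2 CPM in ZnPP+OA. Every OA liver was above every other liver, and ZnPP+OA overlapped Cont. The log2 fold change of OA against Cont was 1.37 ± 0.35 (SE), with an adjusted p of 0.0389 from edgeR. That call was lost on leaving out Cont 1, Cont 2, OA 1, OA 2, OA 3 or ZnPP+OA 1, with adjusted p of 0.0247 to 0.175 over the 9 single-library omissions. In GENCODE M21 the gene spans chr5:31596935-31664384 and shares exonic sequence with Gm43809 on the same strand, so reads of the pair could be exchanged in counting.

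Other members came close to a call without reaching it. Mrps28, a small subunit gene, was at 3.27, 2.68 and 4.84 CPM in Cont, 8.21, 7.06 and 11.2 CPM in OA and 4.54, 4.38 and 4.89 CPM in ZnPP+OA. Its OA livers lay apart from both other groups, with a log2 fold change of 1.29 ± 0.38 (SE) and an adjusted p of 0.0690 in edgeR. Mrpl57 was at 4.29, 5.00 and 5.78 CPM in Cont, 9.89, 11.0 and 10.8 CPM in OA and 6.64, 8.30 and 10.2 CPM in ZnPP+OA. Here the Cont livers were below both treated groups, which overlapped each other, and the log2 fold change of OA against Cont was 1.07 ± 0.32 (SE; edgeR adjusted p = 0.0738). Mrps6 was at 1.39, 4.52 and 3.15 CPM in Cont and at 6.66, 8.88 and 10.3 CPM in OA, without overlap (log2 fold change 1.52 ± 0.47, edgeR adjusted p = 0.0794). Its ZnPP+OA livers, at 5.25, 3.64 and 3.01 CPM, were below every OA liver and overlapped Cont. The exons of Mrps6 overlap those of Slc5a3, an inositol transporter gene on the same strand that was at 0.549 to 9.38 CPM in Cont and 0.404 to 2.28 CPM in OA, with a log2 fold change of -1.44 (edgeR adjusted p = 0.523).

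Several members with well-known roles were in the same range. Mrpl45, which tethers the ribosome to the inner membrane, was at 5.29, 10.6 and 11.2 CPM in Cont and at 13.2, 22.4 and 18.1 CPM in OA, a log2 fold change of 0.99 ± 0.36 (SE; edgeR adjusted p = 0.132). Mrpl10, at the base of the stalk, had a log2 fold change of 0.87 ± 0.31 (SE; edgeR adjusted p = 0.127), and Mrpl44, which resembles RNase III, one of 1.56 ± 0.59 (SE; edgeR adjusted p = 0.144). Mrpl16, next to the peptidyl transferase centre, was at 2.24, 7.08 and 4.89 CPM in Cont and at 9.44, 13.7 and 13.9 CPM in OA (log2 fold change 1.39 ± 0.49, edgeR adjusted p = 0.118). In all of these genes the Cont and OA livers did not overlap. Mrpl12 showed how wide the spread within a group could be, at 56.5, 21.4 and 33.2 CPM in Cont and 22.4, 61.1 and 40.2 CPM in OA. Mrps12, a protein of the decoding site, overlapped between Cont (3.68 to 4.57 CPM) and OA (3.32 to 8.82 CPM).

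Against this general direction, few members had lower values in OA. Mrps5, whose bacterial counterpart helps keep decoding accurate, was at 18.9, 17.9 and 14.2 CPM in Cont and at 12.3, 8.18 and 9.92 CPM in OA, with no overlap. Its log2 fold change was -0.75 ± 0.32 (SE; edgeR adjusted p = 0.192), the lowest of the 78. Mrps7, which binds the ribosomal RNA of the small subunit, was at 32.8, 33.6 and 35.1 CPM in Cont and 26.9, 31.3 and 30.8 CPM in OA. These 2 genes were the only members whose OA livers all lay below the Cont livers, whereas 10.6% of all genes did so. In the opposite direction 17 members did not overlap (21.8%, against 18.5% of all genes), 12 of the large and 5 of the small subunit. Mrpl15, Mrpl41 and Mrpl24 had the lowest log2 fold changes of the large subunit, the first of them -0.61, and the groups overlapped in each. Mrps16 (-0.35) and Mrps24 (-0.34) followed Mrps5 in the small subunit and also overlapped, and both values rested on Cont 1. Mrps16 was at 14.3 CPM there, against 5.13 to 7.41 CPM in the other Cont and the OA livers. Mrps24 was at 16.0 CPM there, against 8.91 and 10.2 CPM in the other Cont livers, and relative to all genes its log2 fold change went from -0.43 to -0.15 without that library.

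**Figure D2:**
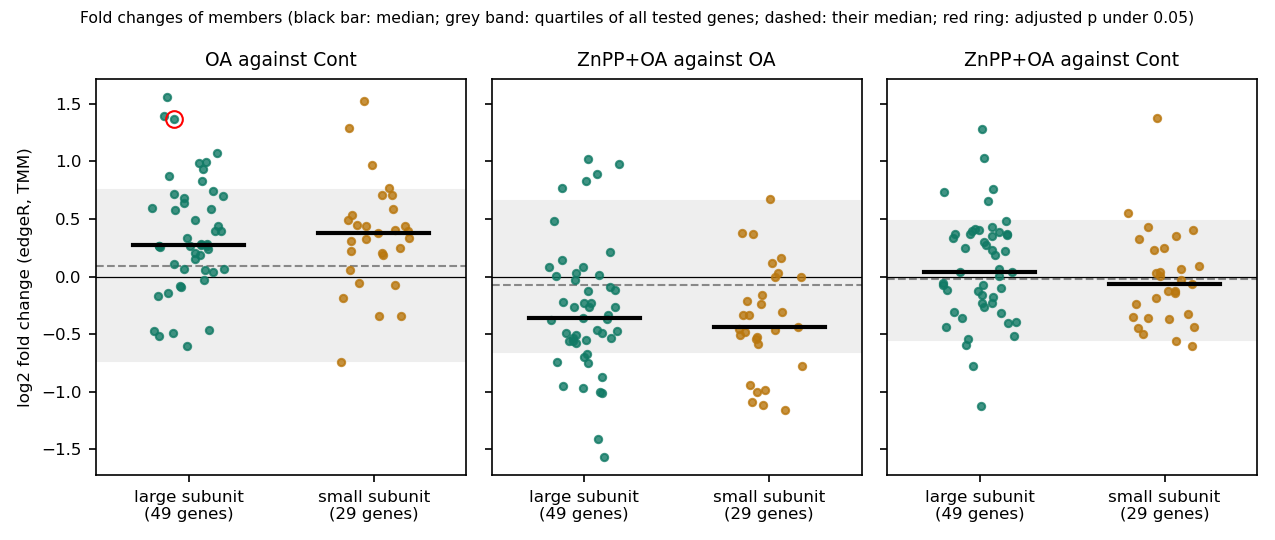
Log2 fold changes (edgeR, TMM) of the 49 large and 29 small subunit genes in the 3 comparisons; each point is a gene, black bars are medians, the grey band spans the quartiles of all tested genes and the dashed line is their median. The members' medians lie above the dashed line for OA against Cont (0.27 and 0.38) and below it for ZnPP+OA against OA (-0.36 and -0.44), and Mrpl33 is the only gene with a red ring (adjusted p under 0.05).

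The second comparison asked what ZnPP given before OA changed relative to OA alone. It shares the OA livers with the first comparison, so the values of both are not independent. No member was called in edgeR, against 2.87% of all genes tested (1.60% higher and 1.26% lower), and the smallest adjusted p was 0.0513. At an unadjusted p under 0.05, 12 members were lower (15.4%, against 10.2% of all genes) and 3 were higher (3.85%, against 7.91%). DESeq2 called 4 members, Mrpl20, Mrpl35 and Mrps25 lower and Mrpl24 higher, which is 5.13% of them against 6.02% of all genes that it tested. The median log2 fold change was -0.36, against -0.07 for all genes, with 59 negative and 19 positive values, where 47.0% of all genes were positive. The members' median was below that of all genes under every alternative, by a difference of -0.29 in all libraries, -0.17 without ZnPP+OA 2 and -0.41 without OA 1. Alternatives of scaling could hardly move this difference either. All ZnPP+OA livers lay below all OA livers in 19 members (24.4%, against 19.2% of all genes) and above them in 6 (7.69%, against 13.6%). Scaling by library totals alone put 54 members past the threshold as lower, with 6317 genes lower and 118 higher, against 239 lower and 303 higher with TMM.

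Mrpl35 encodes another small protein of the large subunit. It was at 10.1, 7.81 and 4.82 CPM in Cont, at 6.59, 12.3 and 11.9 CPM in OA and at 3.78, 3.21 and 3.39 CPM in ZnPP+OA. The 3 ZnPP+OA livers were close together and below all 6 others, while Cont and OA overlapped. The log2 fold change of ZnPP+OA against OA was -1.57 ± 0.39 (SE; edgeR adjusted p = 0.0513), and that of ZnPP+OA against Cont was -1.13 ± 0.39 (SE; edgeR adjusted p = 0.578). Leaving out single libraries moved the former adjusted p to between 0.0245 and 0.249. Mrpl20, whose bacterial counterpart acts early in the assembly of the large subunit, had a like pattern. It was at 10.6, 9.82 and 15.3 CPM in Cont, 13.6, 20.2 and 22.0 CPM in OA and 9.43, 7.31 and 4.16 CPM in ZnPP+OA. Its ZnPP+OA livers were again the 3 lowest of the 9, with a log2 fold change of -1.42 ± 0.37 (SE; edgeR adjusted p = 0.0609) against OA.

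Mrps25 followed among small subunit genes. It was at 12.6, 9.46 and 13.6 CPM in Cont, 15.1, 16.7 and 16.8 CPM in OA and 8.68, 7.84 and 7.77 CPM in ZnPP+OA. None of the 3 groups overlapped, with OA highest and ZnPP+OA lowest, and the log2 fold change of ZnPP+OA against OA was -1.0 ± 0.28 (SE; edgeR adjusted p = 0.0824). Its exons overlap those of Nr2c2, a nuclear receptor gene on the opposite strand, which was at 1.41 to 5.19 CPM in Cont, 0.616 to 1.13 CPM in OA and 0.757 to 5.37 CPM in ZnPP+OA. Mrps18c (-1.16), Mrps6 (-1.12) and Mrps11 (-1.09) had the lowest log2 fold changes of the small subunit, and in each the OA livers were above all ZnPP+OA livers. Mrpl54 (-1.01 ± 0.37, edgeR adjusted p = 0.162) was the next large subunit gene after Mrpl35 and Mrpl20, at 20.4 to 22.6 CPM in OA and 7.20 to 16.1 CPM in ZnPP+OA. Of the paralogues of Mrps18c, Mrps18a had a value near that of Mrps18c and Mrps18b had a smaller one. Mrps18a, whose product sits in the large subunit, had a log2 fold change of -0.99 ± 0.36 (SE; edgeR adjusted p = 0.162), and Mrps18b one of -0.24 ± 0.38 (SE; edgeR adjusted p = 0.819), with overlap between the groups. The difference between the paralogues was not tested.

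A smaller set of members had higher values with ZnPP. Mrpl24, a large subunit protein near the exit tunnel, was at 80.8, 63.0 and 85.2 CPM in Cont, 73.3, 48.8 and 40.6 CPM in OA and 107, 100 and 94.4 CPM in ZnPP+OA. Its ZnPP+OA livers were the 3 highest, while Cont and OA overlapped, and the log2 fold change against OA was 0.89 ± 0.30 (SE; edgeR adjusted p = 0.136). Mrpl38 (0.83 ± 0.31, edgeR adjusted p = 0.169) and Mrpl15 (0.98 ± 0.38, edgeR adjusted p = 0.187) also separated OA from ZnPP+OA, and both overlapped between ZnPP+OA and Cont. Mrps31 was the only small subunit gene of this kind, with 5.55, 5.29 and 5.99 CPM in OA and 6.71, 8.51 and 6.48 CPM in ZnPP+OA.

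**Figure D3:**
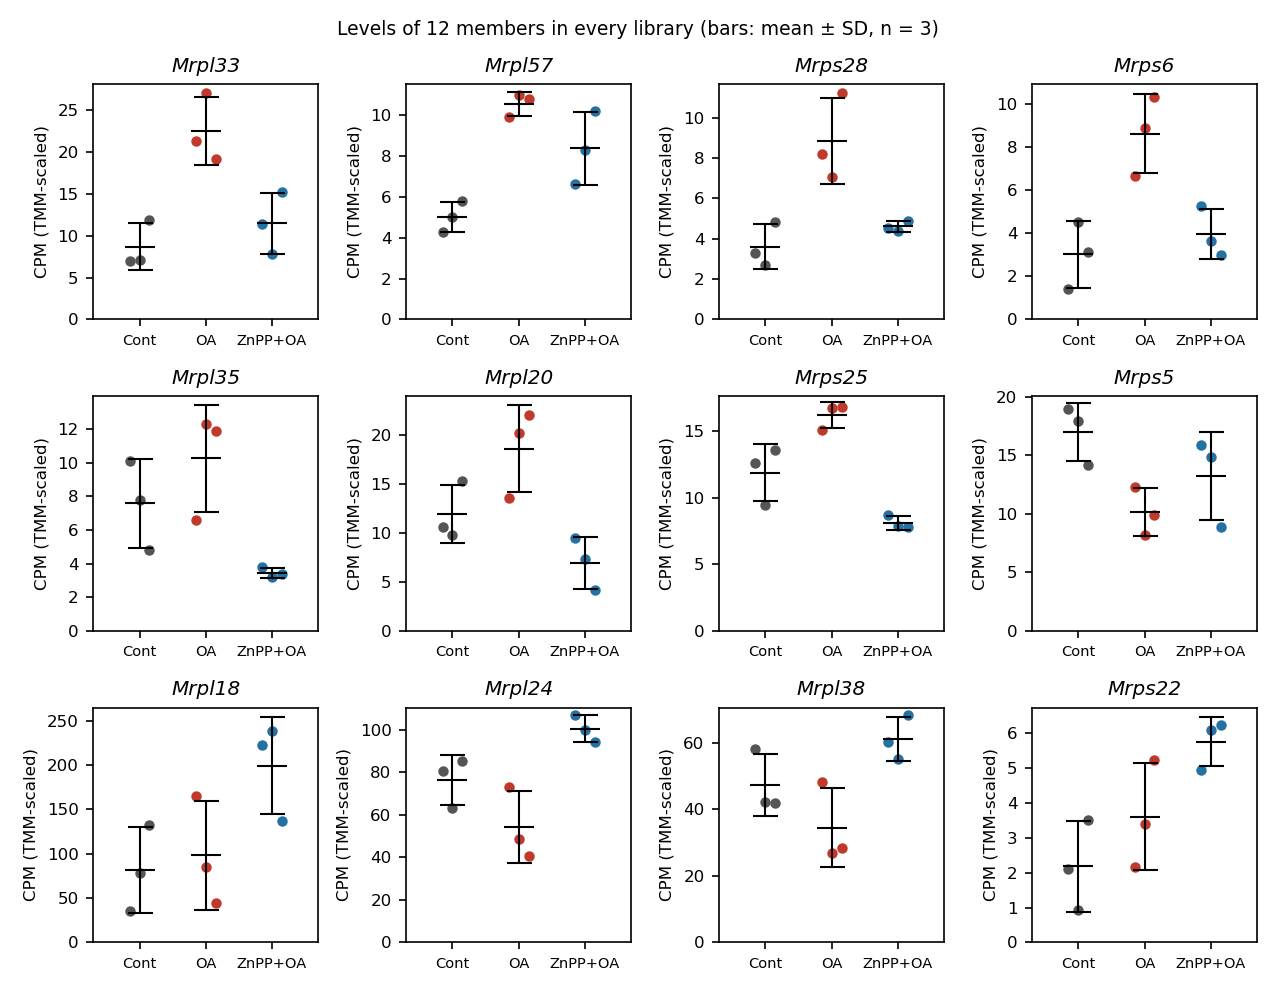
CPM on the TMM scale of 12 members in the 9 livers; points are libraries and bars the mean ± SD (n = 3). The upper row has its highest values in OA, Mrpl35 and Mrpl20 have their lowest values in ZnPP+OA (3.21 to 3.78 CPM and 4.16 to 9.43 CPM), and Mrpl18 ranges from 35.5 to 238 CPM.

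Mrpl18 had the widest range in CPM, 6.70-fold from the lowest to the highest liver, while as a ratio Mrpl53 (16.4-fold) and Mrpl44 (14.5-fold) ranged further at far lower levels. It was at 35.5, 78.5 and 132 CPM in Cont, at 165, 85.3 and 44.6 CPM in OA and at 223, 238 and 137 CPM in ZnPP+OA. The ZnPP+OA livers were above all Cont livers but overlapped OA, and Cont overlapped OA over most of the range. Log2 fold changes were 0.26 ± 0.51 for OA against Cont, 1.02 ± 0.52 for ZnPP+OA against OA and 1.28 ± 0.52 for ZnPP+OA against Cont (SE), with edgeR adjusted p of 0.824, 0.327 and 0.605. The exons of Mrpl18 overlap those of Tcp1, a chaperonin subunit gene on the opposite strand, whose level was far steadier at 57.5 to 77.1 CPM over the 9 livers.

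The third comparison set ZnPP+OA livers against Cont livers. No member and none of the 18895 genes (0.00%) was called in edgeR, while at an unadjusted p under 0.05 4 members were higher (5.13%, against 3.88% of all genes) and 1 was lower (1.28%, against 4.28%). DESeq2 called no member and 245 genes. The members' median log2 fold change was 0.005, against -0.03 for all genes, and its sign relative to all genes changed between alternatives. In 6 members all ZnPP+OA livers lay above all Cont livers (7.69%, against 5.74%), and in 5 they lay below (6.41%, against 4.52%), shares near the background. Mrps22, needed for a stable small subunit in human cells, had the largest log2 fold change and was at 2.09, 0.915 and 3.52 CPM in Cont, 2.17, 3.40 and 5.23 CPM in OA and 4.94, 6.07 and 6.23 CPM in ZnPP+OA. Its log2 fold change against Cont was 1.38 ± 0.53 (SE; edgeR adjusted p = 0.605), and the lowest of these values rests on 15 counts in Cont 2. Mrpl47 and Mrps31 were also above Cont in every ZnPP+OA liver, and Mrps18a, Mrps25 and Mrps7 were below it.

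**Figure D4:**
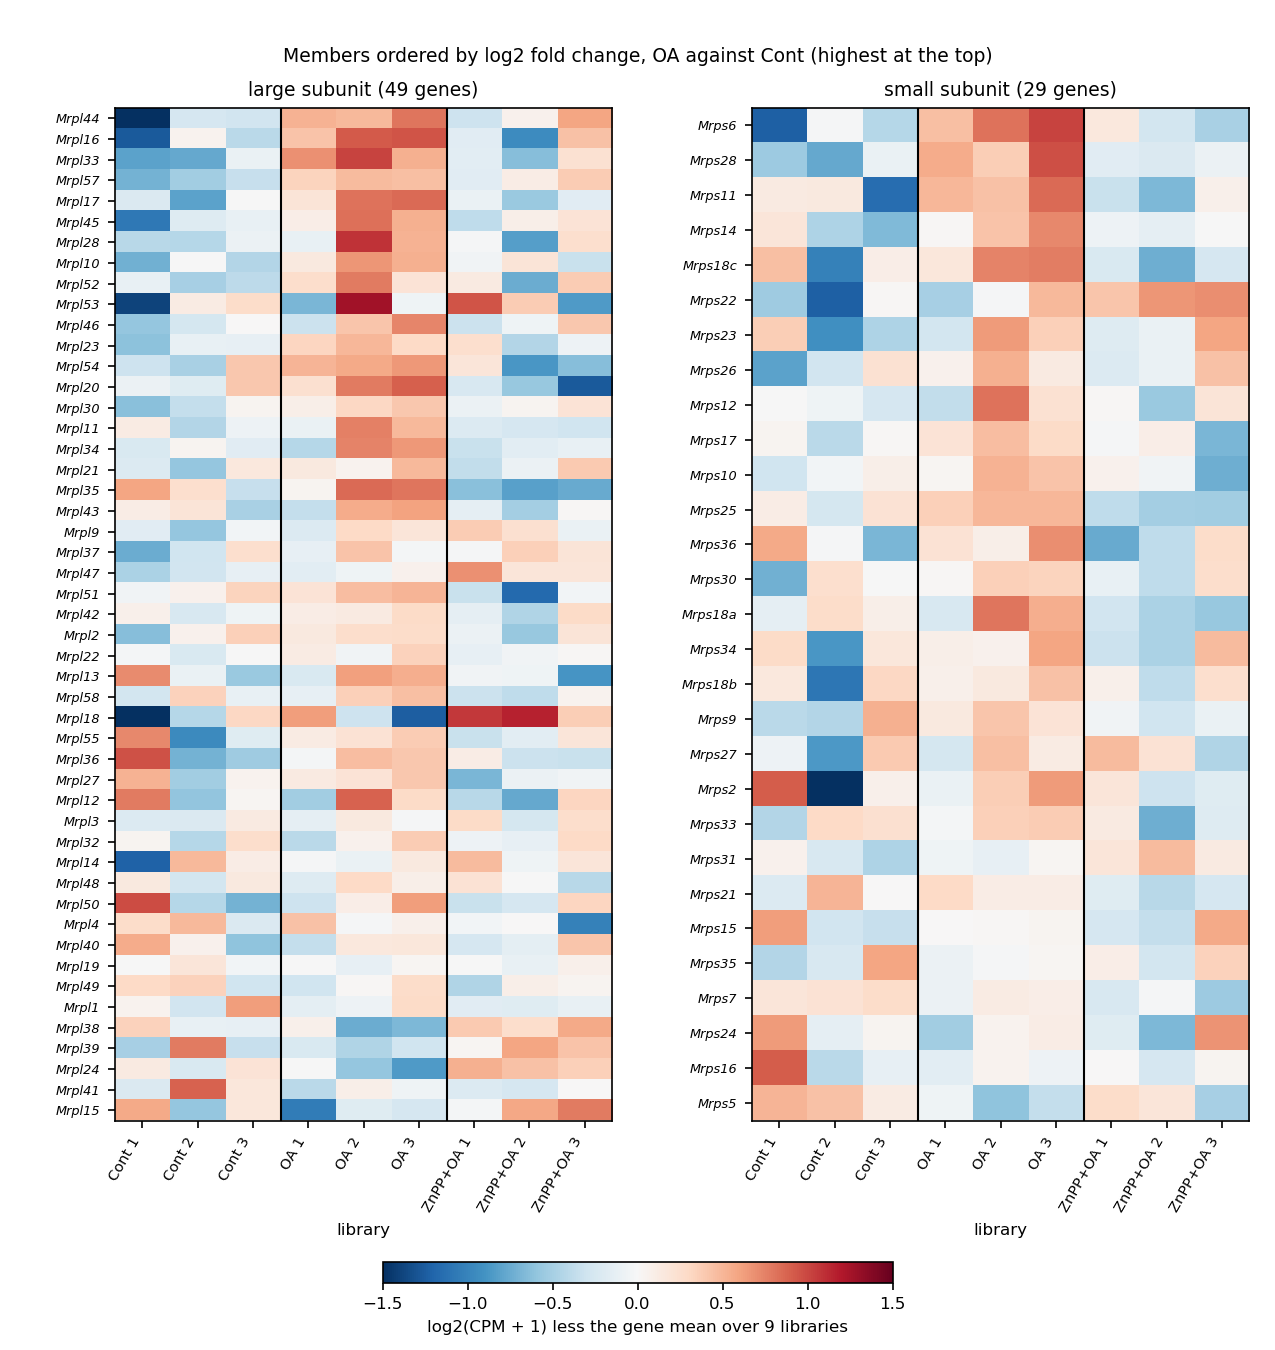
Levels of the 49 large (left) and 29 small (right) subunit genes in the 9 libraries, as log2(CPM + 1) less the gene's mean over libraries, with genes ordered by log2 fold change of OA against Cont; colours are limited to -1.5 and 1.5. Most rows are redder in OA 2 and OA 3, the darkest blue lies in Cont 1 (Mrpl44, Mrpl18, Mrpl53) and Cont 2 (Mrps2), and Mrpl18 is reddest in ZnPP+OA 1 and ZnPP+OA 2.

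Whether large and small subunit genes differed depended on how they were summarised. For OA against Cont the median log2 fold change was 0.27 over the 49 large and 0.38 over the 29 small subunit genes, with quartiles of 0.06 to 0.69 and 0.18 to 0.53. The difference of these medians was -0.11, and it turned to 0.07 without Cont 1. For ZnPP+OA against OA the medians were -0.36 and -0.44, and for ZnPP+OA against Cont they were 0.04 and -0.06. These differences were 0.08 and 0.10, and they turned to -0.04 without OA 3 and to -0.007 without Cont 1. Counted by structure, with Mrps30 and Mrps18a in the large subunit and Mrps36 left out, the medians were 0.28 and 0.33, then -0.36 and -0.38, then 0.04 and -0.04. By group means, OA was the highest of the 3 groups for 32 of 49 large and 21 of 29 small subunit genes. The share of all genes with their highest mean in OA was not computed, so these counts have no background to be read against.

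The ratio of summed counts, which does not depend on scaling, gave another picture. Large subunit genes held 2.08, 2.49 and 2.39 times the counts of small subunit genes in Cont, 2.60, 2.38 and 2.07 times in OA and 3.05, 3.26 and 2.78 times in ZnPP+OA. The ZnPP+OA livers lay above all 6 others, while Cont and OA overlapped. Mrpl18 alone made up 3.57% to 12.5% of the members' counts in Cont, 3.86% to 15.2% in OA and 12.3% to 22.3% in ZnPP+OA, and Mrpl24 made up 7.16% to 8.13%, 3.51% to 6.75% and 8.44% to 9.43%. Without Mrpl18 the ratio was 1.97 to 2.18 in Cont, 1.96 to 2.15 in OA and 2.26 to 2.31 in ZnPP+OA, still apart. Without Mrpl18 and Mrpl24, a choice made after their values were seen, it was 1.70 to 1.93 in Cont, 1.81 to 2.01 in OA and 1.88 to 1.99 in ZnPP+OA, and the groups overlapped. The large-minus-small difference in median log2 CPM of a library was -0.02 to 0.07 in Cont, 0.20 to 0.30 in OA and 0.007 to 0.27 in ZnPP+OA. On this measure every OA liver was above every Cont liver, by 0.21 on average with a pooled SD of 0.0889 between libraries, and ZnPP+OA overlapped both. The sign for OA against Cont is thus opposite to that of the median fold changes.

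**Figure D5:**
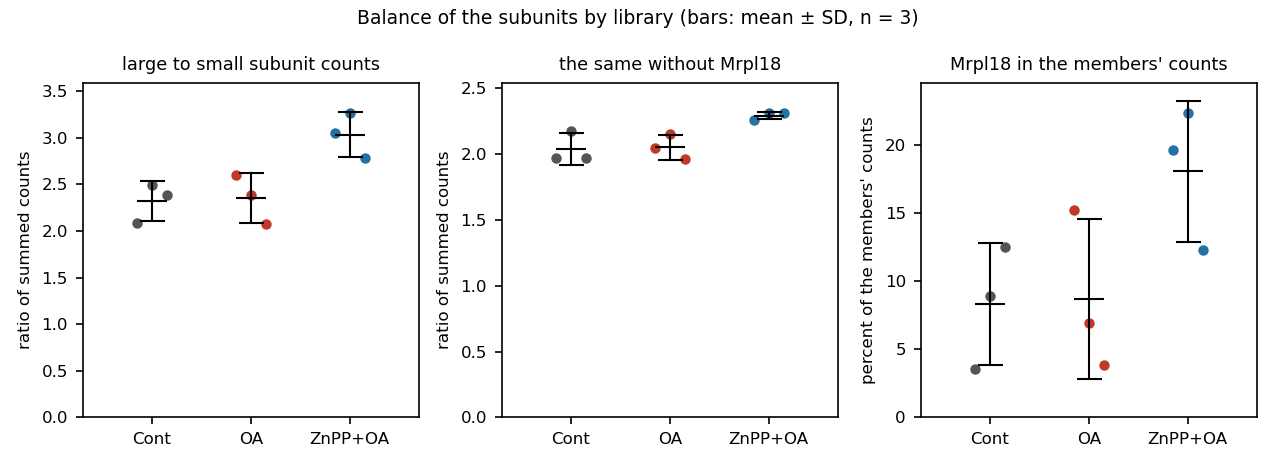
Ratio of summed counts of large to small subunit genes in each library (left), the same without Mrpl18 (middle) and the share of Mrpl18 in the members' counts (right); points are libraries and bars the mean ± SD (n = 3). ZnPP+OA lies above the other groups on the left (2.78 to 3.26) and in the middle (2.26 to 2.31), while on the right its lowest liver (12.3%) is within the range of Cont and OA.

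Spread within a group differed between genes more than between subunits. The median coefficient of variation was 28.1% for large and 39.0% for small subunit genes in Cont, 19.6% and 19.5% in OA, and 23.3% and 26.2% in ZnPP+OA. Mrps15 was the steadiest in OA, at 19.9, 20.0 and 20.3 CPM, and Mrps7 in Cont. Mrps2 varied most in Cont, at 19.3, 2.62 and 10.4 CPM, and Mrpl53 varied most in both other groups, from 1.46 to 8.44 CPM in OA. Spread was widest in Cont, where Cont 2 had the lowest counts and where Cont 1 stood apart in Mrps16 and Mrps24. The part of either library in this spread was not tested. Mrpl3, Mrpl58, a peptidyl-tRNA hydrolase within the ribosome, Mrps30 and Mrps34 overlapped between all groups.

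The 5 proteins of the particle that the name rule leaves out had values near 0 or below it for OA against Cont. Dap3, a GTP-binding protein of the small subunit, was at 48.0, 54.6 and 41.4 CPM in Cont, 36.9, 26.7 and 22.5 CPM in OA and 44.7, 55.4 and 61.0 CPM in ZnPP+OA. Its OA livers were the 3 lowest, though with a log2 fold change of -0.74 against Cont it was not called (edgeR adjusted p = 0.154). Ptcd3, Chchd1 and Aurkaip1 of the small and Gadd45gip1 of the large subunit were not called in any comparison, and the median of the 4 small subunit proteins was -0.06 for OA against Cont. The 2 mitochondrial ribosomal RNAs fell in OA, mt-Rnr1 by 5.43 and mt-Rnr2 by 4.90 on the log2 scale (edgeR adjusted p = 0.0126 and 0.0150). Their levels in poly(A)-selected libraries depend on the tails that selection can hold, and they varied widely within Cont, mt-Rnr1 from 3930 to 68100 CPM. All 13 mitochondrially encoded proteins had a negative log2 fold change (-3.99 to -2.98) and an unadjusted p under 0.05, with every OA liver below every Cont liver, and 3 of them, mt-Nd3, mt-Nd4l and mt-Atp8, passed the adjusted threshold. Over all genes tested, 2.80% were called lower in OA than in Cont. At an unadjusted p under 0.05 10.3% of all genes were lower, and in 10.6% every OA liver was below every Cont liver. For ZnPP+OA against OA all 13 log2 fold changes were positive, with a median of 3.11, and none was called, against 1.60% of all genes called higher.

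The remaining genes of mitochondrial translation were mostly uncalled as well. None of 27 assembly and ribosomal RNA modification factors and none of 16 translation factors was called in any comparison, with medians of 0.004 and -0.15 for OA against Cont. Of 20 aminoacyl-tRNA synthetases and related enzymes only Lars2, the mitochondrial leucyl-tRNA synthetase, was called. It was at 1210, 940 and 393 CPM in Cont, 108, 66.8 and 54.0 CPM in OA and 250, 345 and 1070 CPM in ZnPP+OA, called lower in OA than in Cont and higher in ZnPP+OA than in OA (log2 fold changes of -3.47 and 2.86, edgeR adjusted p = 0.00817 and 0.0270). The other genes of this list were at or below 43.6 CPM in every library (Tars2 in ZnPP+OA 3). Why the counts of Lars2 lay so far above them was not tested. Among 12 regulators of nuclear mitochondrial genes, Myc, a transcription factor of cell growth, rose in OA, from 1.77 to 5.75 CPM in Cont to 12.5 to 14.2 CPM (edgeR adjusted p = 0.0291). Ppargc1b, a coactivator of mitochondrial biogenesis, fell in OA, from 7.22 to 12.6 CPM in Cont to 0.753 to 1.86 CPM (edgeR adjusted p = 0.0276). Over all genes tested, 2.40% were called higher and 2.80% lower for OA against Cont, and 1.60% higher for ZnPP+OA against OA. Nrf1 and Gabpa, whose motifs are marked above, were not called. Yy1 was at 9.71, 11.9 and 8.00 CPM in Cont and 14.3, 20.8 and 21.6 CPM in OA, without a call.

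Genes of the cytosolic ribosome had larger medians in the same directions. Over all genes tested, 2.40% were called higher for OA against Cont and 1.26% lower for ZnPP+OA against OA. The 82 cytosolic ribosomal protein genes tested had a median log2 fold change of 0.73 for OA against Cont, with 6 called higher, and of -0.83 for ZnPP+OA against OA, with 4 called lower. Nuclear subunits of oxidative phosphorylation, 83 genes, had medians of 0.26 and -0.49, with 1 called higher and 2 called lower. The members' medians of 0.32 and -0.36 were near those of the latter. For ZnPP+OA against Cont the lists parted. The median was 0.005 for the members (51.3% positive), -0.32 for oxidative phosphorylation (14.5% positive) and -0.14 for the cytosolic ribosome (25.6% positive). Over all genes it was -0.03, with 48.3% positive. No test of these differences was made.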

How the data were processed

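The counts and FPKM per gene were deposited by the authors for 9 libraries. Tools in the submitters' notes are, with no roles attached, HISAT2 2.2.1, cutadapt 1.9 and StringTie 2.1.6 beside edgeR and DESeq2, with build mm10. The sources used here do not give the tool that made the counts or say whether it used strand. Only 2.27% of genes had the same start and end in the table as in GENCODE M21 (GRCm38), so positions printed here are from GENCODE M21 or RefSeq GRCm38.p6 and not from the table. Exons of 8 of the 78 members overlap another gene on the same strand and those of 28 on the opposite strand.

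The counts were tested with edgeR 4.0.16 in R 4.3.3 (filterByExpr with min.count 10 and min.total.count 15, TMM, quasi-likelihood F tests in 1 fit of 3 groups), with p adjusted by Benjamini and Hochberg over 18895 genes and a threshold of 0.05. CPM were taken on the TMM scale. FPKM, scaled by the authors for gene length and depth, served for levels between genes and, as log2(FPKM + 1), for alternatives with limma 3.58.1. DESeq2 1.42.0 was another alternative. The 3 libraries of a group are 3 mice, and no column of another sample was present (0 columns). Alternatives were RLE factors, library totals, other filters, the replicate block and each library left out. Members and lists were chosen with earlier results of these data known. Genes were named by the rule of calls, the 3 largest and 3 smallest changes and the 3 highest and lowest FPKM per subunit, and a list of known roles, while Mrpl38, Mrpl53, Mrpl57 and Mrps2 were chosen after their values were seen. Medians over members are descriptions without a test. Pooled over members with at least 40 counts in a pair of libraries, counting error alone was far below the spread between mice. This was not checked gene by gene, and counting error is larger for members with few counts, such as Mrps22 (15 in Cont 2).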

Additional observations from a re-analysis of the deposited data

How the results depend on the processing

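Of 828 recomputed values of named members, 736 kept their direction and their side of the threshold, 68 passed it, 11 lost it and 13 reversed relative to the all-gene median. Only 1 of the 36 results behind these values, Mrpl33 for OA against Cont, was called in the main fit. All 11 losses were of that call, and the other results had no call to lose. In the comparison of OA with Cont, the 1 called member became 0 with RLE factors, with libraries scaled to the members' own counts, with the replicate block, with only the 6 compared libraries and without Cont 1 and Cont 2, 14 with library totals, 5 with no filter, 5 with DESeq2 (Mrpl33, Mrpl57, Mrps28 and Mrps6 higher, Mrps5 lower), and 67, 58 and 31 with limma on FPKM, using a pseudocount of 1, a pseudocount of 0.1, and 1 again without a filter. The shares of all genes called were 16.1% with library totals, 6.56% with no filter, 9.75% with DESeq2 and 70.4%, 61.2% and 19.9% in the FPKM settings. Leaving out 1 library gave 0 to 2, with 1.2% to 6.75% of all genes called, the 2 and the 6.75% both without Cont 3. For ZnPP+OA against OA, the count of 0 became 54 with library totals, 2 with no filter, 2 with at least 10 counts in every library, 4 with DESeq2, 3 with the 6 compared libraries, 3 without Cont 1 and Cont 2, and 70, 67 and 47 with the same FPKM settings, with 0 to 3 on leaving out 1 library. All genes were called at 34.1%, 4.55%, 7.5%, 6.02%, 8.40%, 6.39%, 77.5%, 65.2% and 23.8% in these settings, in the same order. Over the single omissions 0.223% to 5.09% of all genes were called for ZnPP+OA against OA, the 3 members and the 5.09% both without Cont 1. Under library totals the median of all genes was itself 1.48 and -1.85, and under limma with a pseudocount of 1 it was 1.19 and -1.27. ZnPP+OA against Cont gave 0 throughout. The large-minus-small median moved to 0.176, -0.013 and 0.167 in the FPKM settings and to 0.019 without Cont 1 and Cont 2 for OA against Cont, and to 0.197 without them for ZnPP+OA against Cont. Over single omissions it ranged from -0.152 to 0.066, from -0.037 to 0.186 (ZnPP+OA against OA) and from -0.007 to 0.181 (ZnPP+OA against Cont). The members' median less that of all genes, a result added after seeing the data, moved to 1.429 and -1.591 in the unfiltered FPKM setting and ranged over single omissions from 0.181 to 0.401 for OA against Cont and from -0.414 to -0.170 for ZnPP+OA against OA. In that setting, relative to all genes, direction changed for OA against Cont in Mrpl15 (0.504), Mrpl41 (1.012), Mrpl24 (0.977), Mrps5 (0.454), Mrps16 (0.819) and Mrps24 (1.008), and for ZnPP+OA against OA in Mrpl18 (-0.457), Mrpl15 (-0.440), Mrpl24 (-0.685), Mrps22 (-0.456), Mrps5 (-0.783) and Mrps31 (-0.829). Mrps16 also changed direction without Cont 1 (range -0.748 to 0.129). The cause of these changes was not tested. Same-numbered libraries did not deviate together (correlations -0.101 to 0.014). The sample labels do not say whether the numbers pair mice, and this check on 3 mice per group cannot settle it. Depth limits Cont 2 most, with 14407 counts over all members.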

Other observations

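Members with a transcript annotated as a retained intron, a split chosen after the data were seen, numbered 48, against 30 without one. For ZnPP+OA against OA the median log2 fold change was -0.30 in the former, with 17 positive values, and -0.46 in the latter, with 2 positive values. For OA against Cont the medians were 0.33 and 0.26.

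Members with an ETS match in the promoter window had a median log2 fold change of 0.39 for OA against Cont, with 25 of 26 values positive, against 0.31 and 33 of 43 in those without one. For ZnPP+OA against OA the medians were -0.40 and -0.37. The NRF1 and YY1 motifs were split in the same way. For OA against Cont the medians with and without an NRF1 match were 0.36 and 0.33, with 7 of 8 and 51 of 61 positive. With and without a YY1 match they were 0.27 and 0.39, the other way round, with 10 of 13 and 48 of 56 positive. These values are descriptions, and no test was made of any of these splits.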
